A study of Mus musculus with 9 samples.

Results

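The Schlafen genes are a family of the mouse and other mammals, and 7 of them were followed here in transferred pmel1 CD8+ T cells: Slfn1, Slfn2, Slfn3, Slfn4, Slfn5, Slfn8 and Slfn9. The members were chosen by gene symbol from the 30702 genes that the array table names, with the row of highest mean level over the 9 arrays kept for each gene. Every member had a single row that named no other gene, so no measured level decided which row stood for it. The family was picked with results of these arrays known, in which Slfn5 was already seen to be lower in the combination than in anti-CD27, and its values there are given as a description. The pmel1 strain is transgenic for a T cell receptor that recognises gp100, an antigen of pigment cells. All 9 recipients were naive congenic mice, whose age is not given in the labels, and each received pmel1 cells marked by Thy1.1, human gp100 peptide (100 µg, intravenous) and antibodies adding up to 400 µg. In the combination group this was 200 µg of the CD27 agonist AT124, 100 µg of RMP1-14 against PD-1 and 100 µg of 10F.9G2 against PD-L1. The anti-CD27 group received 200 µg of AT124 with 200 µg of isotype control, and the anti-PD-1/L1 group received the other 2 antibodies at the same doses with 200 µg of isotype control. Spleen cells were taken on day 4 from 3 mice in each group, sorted for CD8 and Thy1.1, and hybridised to 1 array per mouse. Every group received peptide and antibody, and no untreated or peptide-only sample was analysed here.

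Schlafen proteins share an N-terminal core, and the family is divided by length. Slfn1 and Slfn2 are short forms made of little more than that core, Slfn3 and Slfn4 are intermediate, and Slfn5, Slfn8 and Slfn9 are long forms with a helicase-like C-terminal part. Several members act on transfer RNA. Slfn2 is needed to keep resting T cells quiescent and to let them survive activation, and it protects transfer RNA from cleavage in activated T cells. Slfn1 was described as a brake on thymocyte growth, Slfn4 is known mainly from macrophages and other myeloid cells, and Slfn5 is a target of type I interferon.

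The sequence before the start of each gene is shown first, because it separated the members by a motif that interferon signalling is known to use. RefSeq windows on GRCm38.p6 were found for 7 of the 7 members, and the 250 bases before the start were searched on both strands. The interferon-stimulated response element core TTTCNNTTTC was present before Slfn5, Slfn8 and Slfn9 and before none of the other 4. Of 27025 genes with such a window, 3.46% held it. The longest run of letters that the windows of Slfn1, Slfn2, Slfn3 and Slfn4 share on the strand of the gene is ACTTCCTGG, which was sought after the sequences had been seen. It lay before none of the long forms, and 0.829% of genes held it. The gamma-activated site TTCNNNGAA was in no member's window and in 8.13% of genes. The matches are given below with 15 bases on each side, 5′ to 3′ in the direction of the gene, with the matched letters in capitals. They come from chr11:82951932-82951971 (plus strand) for Slfn5, chr11:83020834-83020873 (minus) for Slfn8, chr11:82991851-82991890 (minus) for Slfn9, chr11:83116731-83116769 (plus) for Slfn1, chr11:83065042-83065080 (plus) for Slfn2, chr11:83191273-83191311 (plus) for Slfn3 and chr11:83175098-83175136 (plus) for Slfn4.
Slfn5: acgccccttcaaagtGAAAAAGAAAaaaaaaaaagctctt
Slfn8: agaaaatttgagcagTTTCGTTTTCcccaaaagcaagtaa
Slfn9: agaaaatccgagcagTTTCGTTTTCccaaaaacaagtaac
Slfn1: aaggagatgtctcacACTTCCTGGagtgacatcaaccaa
Slfn2: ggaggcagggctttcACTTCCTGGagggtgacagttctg
Slfn3: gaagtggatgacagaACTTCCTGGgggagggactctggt
Slfn4: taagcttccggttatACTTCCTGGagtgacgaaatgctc
The Slfn5 match is on the opposite strand and runs into a stretch of adenines. Slfn8 and Slfn9, which lie next to each other on the chromosome, carry the same 10 letters. The whole window before Slfn5 (chr11:82951852-82952101, plus strand, element in capitals) and before Slfn2 (chr11:83064862-83065111, plus strand, the shared run in capitals) read as follows.
Slfn5: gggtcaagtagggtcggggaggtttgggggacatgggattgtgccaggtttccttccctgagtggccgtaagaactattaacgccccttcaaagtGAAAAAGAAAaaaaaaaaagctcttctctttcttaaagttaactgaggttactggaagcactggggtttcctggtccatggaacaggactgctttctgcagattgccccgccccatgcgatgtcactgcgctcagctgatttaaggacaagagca
Slfn2: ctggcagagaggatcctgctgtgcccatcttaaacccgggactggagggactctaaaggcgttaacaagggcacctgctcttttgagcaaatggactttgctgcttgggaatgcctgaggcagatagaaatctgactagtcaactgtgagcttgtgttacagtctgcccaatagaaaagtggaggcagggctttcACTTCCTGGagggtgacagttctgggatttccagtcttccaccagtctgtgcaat

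Levels are log2 values of 1 probe set per gene, and they are compared between groups for a gene, not between genes. The mean of the background control probe sets was 3.27 ± 0.06 (SD, n = 3) on the anti-CD27 arrays, 3.25 ± 0.04 on the combination arrays and 4.06 ± 0.08 on the anti-PD-1/L1 arrays, and a member is called above background on an array where it exceeded that array's mean by more than 1. The anti-PD-1/L1 arrays also stood apart in their positive controls, at 5.75 ± 0.19, where the anti-CD27 arrays were at 6.70 ± 0.02 and the combination arrays at 6.81 ± 0.04. This difference between arrays and the treatment cannot be told apart, and all comparisons with anti-PD-1/L1 carry it. All 6 T cell markers, Cd8a and Thy1 among them, were above background in each group. Their levels were not equal, however. With AT124, alone or combined, 4 of the 6 were higher than without it and 1 was lower (limma adjusted p under 0.05). Among the 11557 genes with a mean above background, 45.4% were higher in the combination and 41.3% in anti-CD27. Lower were 31.7% and 32.4%. The mean summed log2 level of the 6 markers was 13.22 (anti-CD27), 13.07 (combination) and 11.98 (anti-PD-1/L1). Cd8a was at 10.8, 10.5 and 9.2 in that order. How far this gap enters the Schlafen differences from anti-PD-1/L1 was not tested. Of 10 myeloid markers, Lyz2, Csf1r, Cd14, S100a8 and Csf3r lay below the background controls in every group and Cd68 was above background in each. Itgam was 1.10 over the controls in the combination, past the margin, and 0.48 over them in anti-CD27. Cd4 and the B cell markers Cd79a, Ms4a1 and Ebf1 lay below the controls too, while Cd79b and Zbtb7b were above background, and no dendritic, NK or erythroid marker was. In sorted cells measured in bulk, fewer cells of a type and less transcript per cell cannot be told apart.

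**Figure D1:**
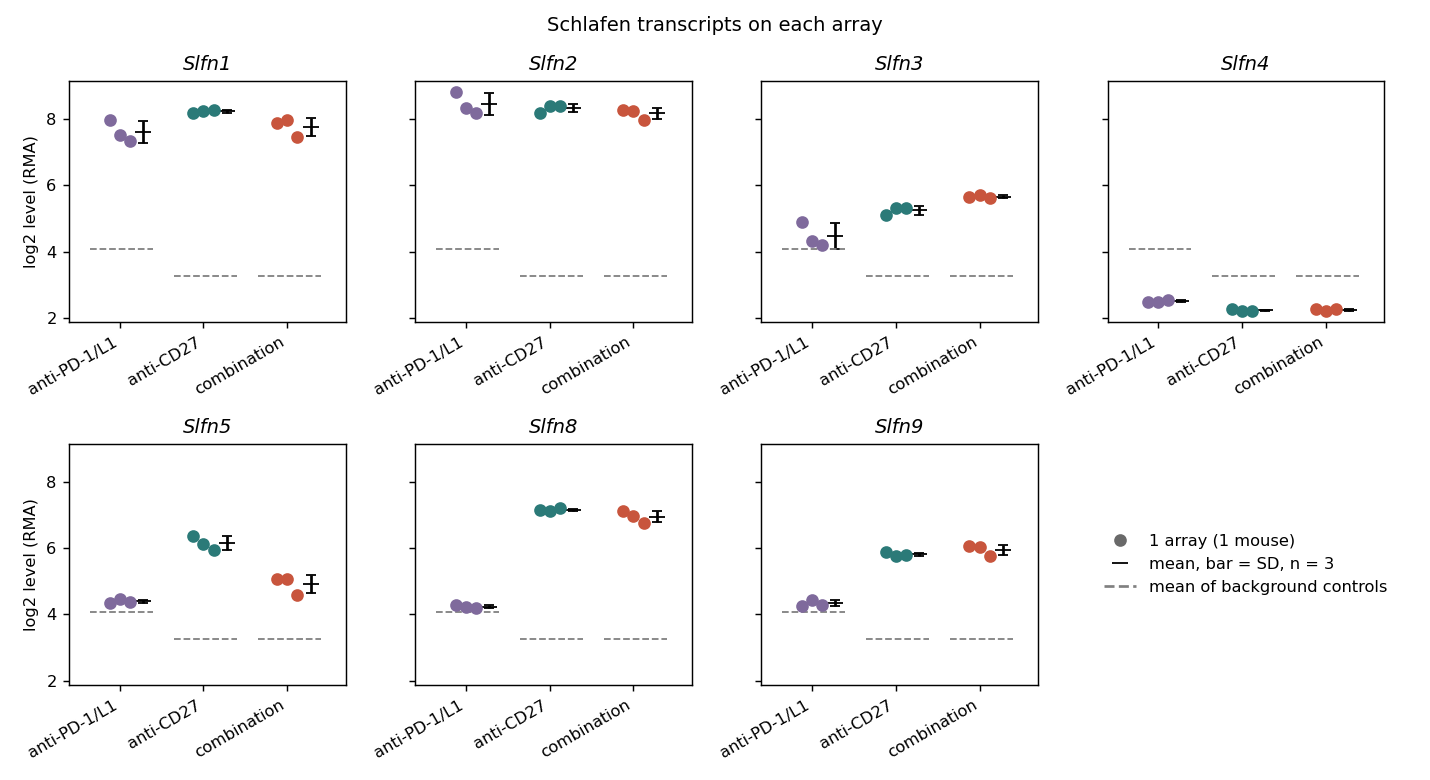
Log2 level of each Schlafen member on each array, by treatment group. Points are arrays (1 mouse each), black marks show the mean and SD of 3 arrays, and dashed lines the mean of the background controls of that group. Slfn5 lies lower in the combination (4.59 to 5.07) than in anti-CD27 (5.95 to 6.36), and Slfn4 is below the background controls in all 3 groups. Slfn3, Slfn5, Slfn8 and Slfn9 are within 1 of the background controls in anti-PD-1/L1 only.

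Setting the combination against anti-CD27 addresses the effect of the PD-1 and PD-L1 antibodies on top of AT124. Slfn5, the long form known as an interferon target, was lower in the combination by 2.36-fold, and none of the other members passed the test across 30702 genes. On the anti-CD27 arrays it was at 6.36, 6.13 and 5.95, and on the combination arrays at 5.07, 5.07 and 4.59. The lowest anti-CD27 array was above the highest combination array, and all 6 were above background. The difference was -1.24 ± 0.14 (SE, combination minus anti-CD27, 95% interval -1.57 to -0.92). Since this fall was known when the family was picked, it is given with no test and nothing is read from its call. With Slfn5 set aside, none of the other 6 members was called, where falls were called in 0.524% of all genes and rises in 1.27%. Among the 11557 genes whose mean was above the background controls by more than 1, these shares were 1.15% and 2.80%.

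Neither of the other long forms passed. Slfn8 was at 7.13, 7.12 and 7.20 in anti-CD27 and at 7.12, 6.96 and 6.76 in the combination, so that the groups lay next to each other without overlap. Its difference of -0.20 ± 0.09 did not pass (limma adjusted p = 0.47), and its 95% interval of -0.40 to -0.01 excluded a fall of the size seen in Slfn5. Slfn9 was at 5.87, 5.76 and 5.80 in anti-CD27 and 6.05, 6.02 and 5.76 in the combination, with overlapping arrays and a difference of 0.14 ± 0.09 (interval -0.06 to 0.33, adjusted p = 0.84). The element shown above was present before Slfn5, which fell, and before both of these members, which did not pass. Slfn5os, an antisense RNA whose gene overlaps Slfn5 on the other strand, was at 3.28 ± 0.02 in the combination and 3.40 ± 0.06 in anti-CD27, close to the background controls.

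Slfn2, the short form tied to quiescence, did not pass. It was at 8.18, 8.40 and 8.40 in anti-CD27 and at 8.28, 8.24 and 7.98 in the combination, and the groups overlapped. Its difference was -0.16 ± 0.16 (interval -0.52 to 0.20, limma adjusted p = 1), an interval that still allows a fall of up to 0.52. Slfn1 was at 8.17, 8.25 and 8.27 in anti-CD27 and at 7.88, 7.96 and 7.45 in the combination, every combination array below every anti-CD27 array. Its difference of -0.47 ± 0.17 did not pass (adjusted p = 0.362), but it passed with the positive controls as a covariate (adjusted p = 0.0283). Slfn3 went the other way, with 5.10, 5.33 and 5.33 in anti-CD27 and 5.65, 5.70 and 5.61 in the combination, and no overlap. Its difference of 0.41 ± 0.17 did not pass (adjusted p = 0.439), but it passed with the 6 arrays alone (0.0399), with array weights (0.0186) and without replicate 1 of anti-PD-1/L1 (0.0287). Arrays did not overlap in 3 members that were lower, Slfn5 among them, and 1 that was higher, where 8.46% and 12.1% of all genes did so. Slfn4, the member known from myeloid cells, was below the background controls on all 9 arrays and has no measured level in these cells.

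**Figure D2:**
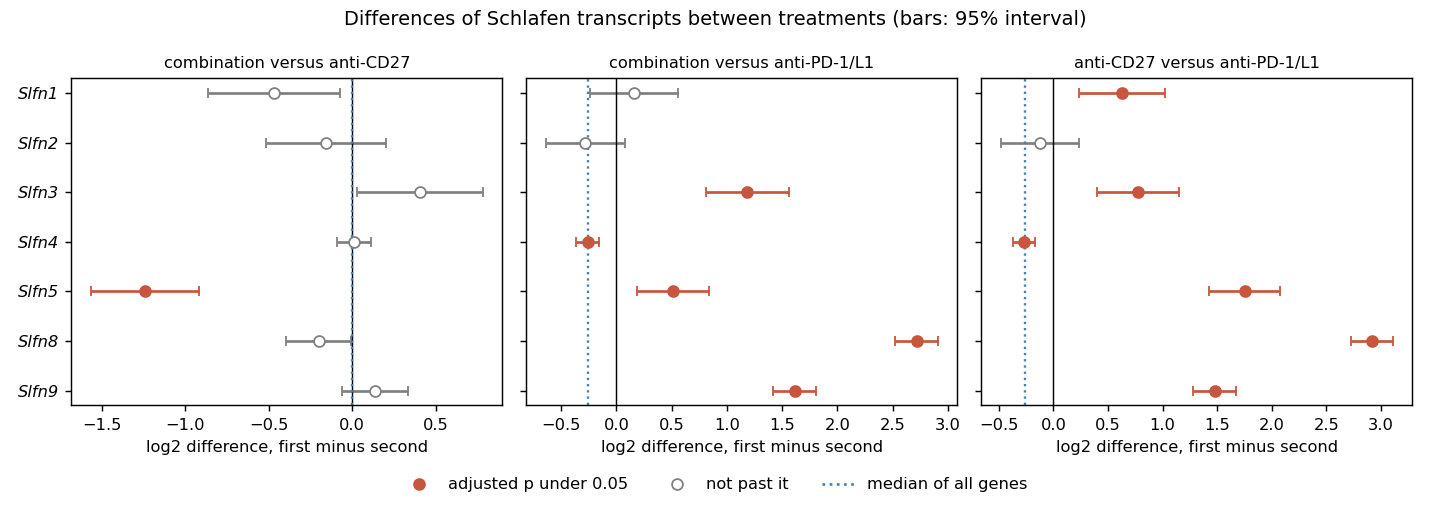
Log2 differences of the 7 members in each of the 3 comparisons (first group minus second), with 95% intervals from limma. Filled points passed an adjusted p of 0.05, and the dotted line is the median of all genes, which was -0.26 in both comparisons with anti-PD-1/L1. In the left panel Slfn5 alone is filled, at -1.24, a fall known when the family was picked.

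Slfn5 and the quiescence factor Slfn2 were set side by side within each array, as the log2 value of Slfn5 minus that of Slfn2. Since the fall of Slfn5 was known when the family was picked, this is a description of the same arrays and is given with no test. The value was -1.83, -2.27 and -2.44 on the anti-CD27 arrays and -3.22, -3.18 and -3.39 on the combination arrays. The combination arrays were all lower, with group means of -3.26 ± 0.12 and -2.18 ± 0.32 (SD, n = 3) and a difference of -1.08. On the anti-PD-1/L1 arrays the measured value was -4.46, -3.89 and -3.81, but Slfn5 was not above background on any of them. With Slfn5 set to the background threshold of each array, the upper limits there were -3.79, -3.33 and -3.03. These limits reach into the range of the combination, so the order of these groups is not known, and they lie below every anti-CD27 array.

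**Figure D3:**
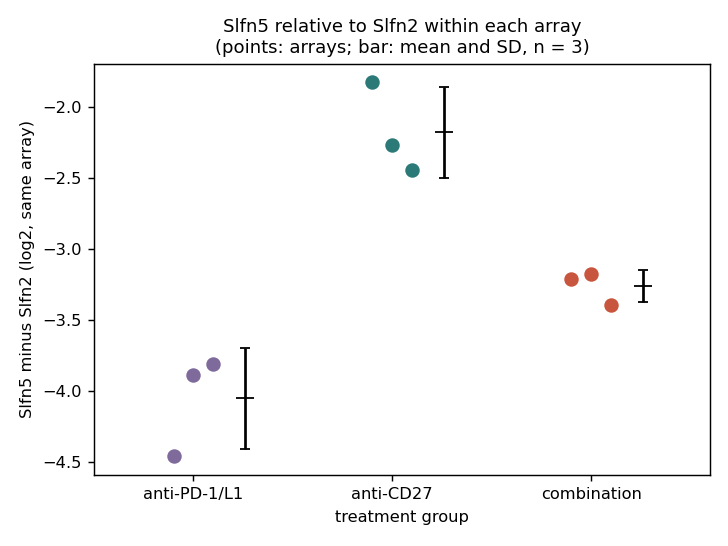
Measured log2 value of Slfn5 minus that of Slfn2 on the same array, by group. Points are arrays, and the bars give the mean and SD of 3 arrays. The combination (-3.39 to -3.18) lies below anti-CD27 (-2.44 to -1.83), and the anti-PD-1/L1 points (-4.46 to -3.81) rest on Slfn5 values not above background, with upper limits of up to -3.03.

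Type I interferon acts through a receptor of the Ifnar1 and Ifnar2 chains, the kinases Jak1 and Tyk2, and a transcription factor complex, with Stat2 and Irf9 in it, that binds the element shown above. Of 34 measured interferon-stimulated genes outside the family, 6 fell in the combination against anti-CD27, 0 rose and 28 did not pass, and their median difference was -0.24, where the median of all genes was -0.0032. Falls were called in 0.524% of all genes and 1.15% of those above background, and rises in 1.27% and 2.80%. The same shares apply to the other lists in this comparison. The difference was negative in 30 of the 34. The largest fall among them was that of Ifit1, an inhibitor of foreign RNA translation, which went from 7.05, 7.26 and 6.96 to 6.34, 6.17 and 5.79 (-0.99 ± 0.16, limma adjusted p = 0.0182). Its call was lost when any 1 array of anti-CD27, or the second combination array, was left out (adjusted p up to 0.0899). In those same 4 fits the count of falls was 2 or 3. It was 10 when replicate 1 or 3 of anti-PD-1/L1 was left out, and 12 falls with 1 rise in the 6 arrays alone. Ifit3 (-0.73) and Ifit3b (-0.85) kept their calls whichever array was left out (limma adjusted p up to 0.0193 and 0.0453). Ifit3b was 0.72 over the background controls in the combination, under the margin of 1. Rsad2 lost its call in 4 of these fits (adjusted p up to 0.11). Of 13 interferon receptor and signalling genes, 2 fell and 0 rose (median -0.19). They were Ifngr2, a chain of the interferon gamma receptor (-0.48, adjusted p = 0.013), and Stat2. Ifngr2 was 0.84 over the background controls in the combination, under the margin of 1. Its call was lost in 4 of the 9 fits that left out 1 array (adjusted p up to 0.0747). Stat2 went from 6.79, 6.83 and 6.67 to 6.40 on each combination array (-0.36 ± 0.05, adjusted p = 0.0141), a call lost in 5 of the 9 fits that left out 1 array (adjusted p up to 0.0832). When replicate 1 or 2 of anti-CD27, or else 1 or 3 of the combination, was left out, 0 of the 13 fell, and 1 did in the absence of replicate 2 of the combination.

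Slfn2 was also set beside other genes that hold T cells in quiescence. Of 21 such genes, 3 fell in the combination against anti-CD27, 0 rose and 18 did not pass, with a median of -0.17. The largest fall was that of Lef1 (-0.63 ± 0.11, limma adjusted p = 0.028), and its call was lost in each of the 6 fits that left out an array of these groups (adjusted p up to 0.144). Foxp1, a transcription factor of resting T cells, fell by 0.52 on the log2 scale (-0.52 ± 0.09, limma adjusted p = 0.0208), and Runx1, another such factor, fell by 0.50 (-0.50 ± 0.07, adjusted p = 0.0134). Each combination array was needed for both calls, and replicates 1 and 3 of anti-CD27 for that of Foxp1 as well (adjusted p up to 0.0727). The count of falls in the list was 0 when any 1 of the combination arrays was left out, 1 when replicate 1 or 3 of anti-CD27 was, 5 when replicate 3 of anti-PD-1/L1 was, and 7 in the 6 arrays alone. Proliferation genes moved the other way, with 7 of 12 higher, 0 lower and a median of 0.99, and with 4 higher when replicate 1 of anti-CD27 or 2 of the combination was left out. Rrm2, which makes deoxynucleotides, rose by 1.52 ± 0.19 (adjusted p = 0.00731). Of 7 measured genes of transfer RNA cleavage and protection, the process in which Slfn2 acts, 0 passed. Among markers of other cells, the integrin chain gene Itgam was higher in the combination (0.61 ± 0.05, adjusted p = 0.00102), 1 of 10 myeloid markers, and the summed level of the 10 was 6.94 to 7.04 in the combination against 6.77 to 6.78 in anti-CD27. Its part in the results was not tested.

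**Figure D4:**
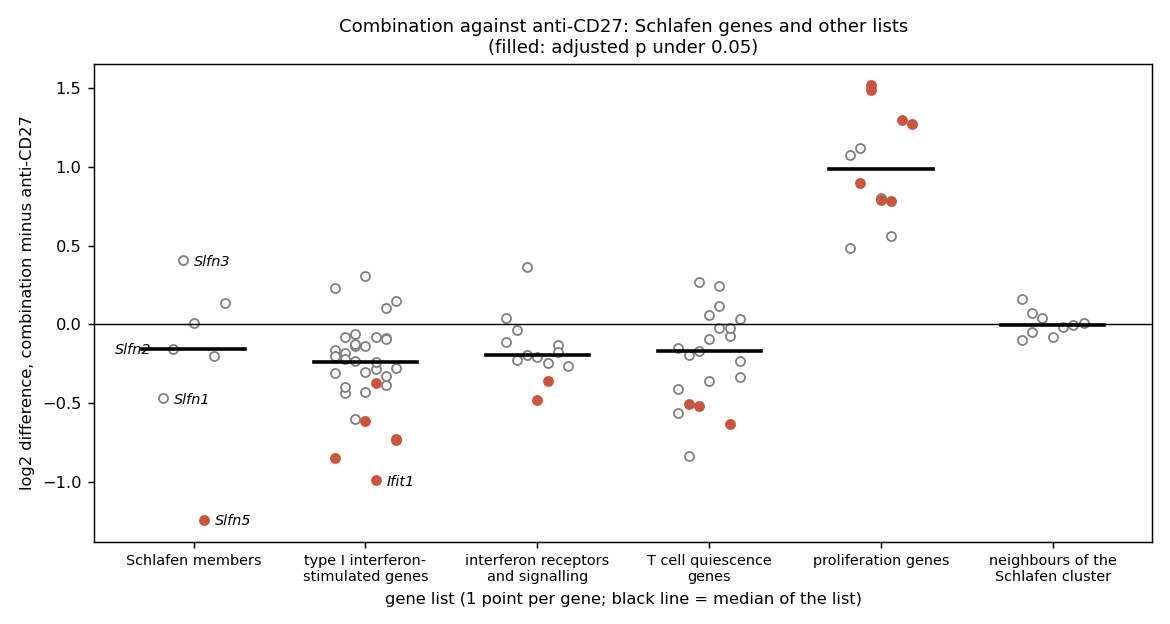
Log2 difference of each gene between the combination and anti-CD27, for the Schlafen members, 4 other gene lists and the neighbouring genes. Each point is a gene, filled where its adjusted p was under 0.05, and black lines are list medians. Slfn5 is at -1.24, the lowest of the 34 interferon-stimulated genes is Ifit1 (-0.99), and the 12 proliferation genes lie above 0.

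Against anti-PD-1/L1, the combination addresses the effect of AT124 on top of the blockade, and anti-CD27 the difference between the single treatments. Here 4 members were higher in the combination and 5 in anti-CD27, against 19.0% and 17.2% of all genes, and 1 was lower in each, against 53.3% and 53.7%. Among the 11557 genes of higher mean, 45.4% and 41.3% were higher and 31.7% and 32.4% lower, so that a rise was common among genes of such levels. The comparisons share the anti-PD-1/L1 arrays. Of the 6 members with a level in the other groups, only Slfn1 and Slfn2 were above background on the 3 anti-PD-1/L1 arrays, and Slfn3, Slfn5, Slfn8 and Slfn9 were above it on 0 of 3.

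Slfn8 differed most. It was at 4.28, 4.23 and 4.19 on the anti-PD-1/L1 arrays, within 0.17 of the background controls on average, against means of 7.15 ± 0.04 in anti-CD27 and 6.95 ± 0.18 in the combination. Since a value at background is only a bound, Slfn8 was at least 4.25-fold higher in anti-CD27 (limma adjusted p = 5.92e-08) and at least 3.69-fold higher in the combination (adjusted p = 6.47e-08). These bounds set the mean of the brighter group against the threshold of 1 above background on the dimmer arrays. They carry no sampling error, and each adjusted p given with a bound tests the measured difference instead. These bounds and those below make no allowance for the lower positive controls of the anti-PD-1/L1 arrays. Those were at 5.75, against 6.70 in anti-CD27 and 6.81 in the combination. As a covariate, the positive controls nearly coincide with the anti-PD-1/L1 group. Passing or failing that fit therefore cannot separate the arrays from the treatment. Slfn8 was the 1 member that still rose in both comparisons with the positive controls as a covariate (adjusted p = 0.0132 and 0.0243). Its neighbour Slfn9 was at 4.26, 4.43 and 4.29 in anti-PD-1/L1, and at least 1.67-fold higher in anti-CD27 (adjusted p = 2.32e-06) and 1.84-fold in the combination (adjusted p = 1.26e-06). With that covariate neither passed (adjusted p = 0.0651 and 0.072). The pseudogene Slfn10-ps, which lies beside Slfn8, was at 3.69 ± 0.16 in anti-PD-1/L1, below the background controls, and at 5.07 ± 0.07 and 5.08 ± 0.08 in the other groups. Near-identical sequence among these 3 neighbours could let a probe set measure more than 1 of them, which was not tested.

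Slfn5 was at 4.35, 4.45 and 4.38 in anti-PD-1/L1, within 0.33 of the background controls on average. Its measured difference in anti-CD27 was 1.75 ± 0.14 (limma adjusted p = 1.62e-05), and as a bound it was at least 2.12-fold higher there. Its combination mean of 4.91 ± 0.28 was higher than the anti-PD-1/L1 mean of 4.39 ± 0.05 by the fit (0.51 ± 0.14, adjusted p = 0.0106), but lay under the background threshold of the anti-PD-1/L1 arrays, and no fold is given. The measured level of Slfn5 was thus highest on the anti-CD27 arrays, and the order of the combination and anti-PD-1/L1 is not known. Against anti-PD-1/L1, the difference between arrays and the treatment cannot be told apart. Both calls were lost with the positive controls as a covariate (adjusted p = 0.188 and 0.862). Slfn3 was at 4.90, 4.32 and 4.19 in anti-PD-1/L1. Its measured difference was 0.779 ± 0.165 in anti-CD27 (adjusted p = 0.00272) and 1.186 ± 0.165 in the combination (adjusted p = 0.000236). As bounds, it was at least 1.14-fold and 1.51-fold higher. The first bound, 0.185 on the log2 scale, is close to the SE of the measured difference, and neither bound was tested. With the covariate Slfn3 differed by -1.01 and -0.81, in the opposite direction, and did not pass (adjusted p = 0.136 and 0.267).

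The short forms were measured above background in every group. Slfn2 was at 8.81, 8.34 and 8.19 in anti-PD-1/L1, its highest mean of the 3 groups at 8.45 ± 0.33, and overlapped with both other groups. It differed by -0.28 ± 0.16 in the combination (interval -0.64 to 0.08, limma adjusted p = 0.136) and by -0.12 ± 0.16 in anti-CD27 (interval -0.48 to 0.24, adjusted p = 0.494). Its means ran from anti-PD-1/L1 through anti-CD27 to the combination, and no neighbours in that order differed beyond the spread. After quantile normalization both differences passed, at -0.63 (adjusted p = 0.00101) and -0.40 (adjusted p = 0.0122), and they did so with the positive controls as a covariate, at -2.15 (adjusted p = 0.0323) and -1.80 (adjusted p = 0.0349). Without replicate 3 of anti-PD-1/L1 the first passed at -0.41 (adjusted p = 0.0479), and without its replicate 1 the second turned to 0.06 (adjusted p = 0.637). Slfn1 was at 7.96, 7.51 and 7.34 in anti-PD-1/L1. It was higher in anti-CD27 by 1.55-fold (0.63 ± 0.17, adjusted p = 0.0105), a call lost after quantile normalization (0.31, adjusted p = 0.0743) and turned to -1.18 with the covariate (adjusted p = 0.142). Against the combination its arrays overlapped (0.16 ± 0.17, adjusted p = 0.413), and the sign turned under both of these settings. Slfn4 was called lower in both comparisons, by -0.26 and -0.27, which is the median shift of all genes (-0.26), and with both groups below background it has no fold.

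Interferon-stimulated genes were mostly higher in the groups that received AT124, with 27 of 34 higher and 3 lower in the combination than in anti-PD-1/L1, and with 27 higher and 2 lower in anti-CD27 (medians 0.57 and 0.98). Over all genes 19.0% and 17.2% were higher, and 45.4% and 41.3% of those above background. Of the 34, 19 had a mean above background in anti-PD-1/L1, 27 in the combination and 31 in anti-CD27, so that the medians rest in part on values at background. Eif2ak2, an interferon-induced kinase that halts translation, was at 3.31 ± 0.09 in anti-PD-1/L1, below the background controls, and at 6.46 ± 0.08 in anti-CD27 and 6.38 ± 0.12 in the combination. With the positive controls as a covariate, 2 of the 34 were higher in the combination and 4 in anti-CD27. Of the 21 quiescence genes, 16 were higher and 1 lower in the combination and 18 higher and 0 lower in anti-CD27, to be read against the same shares, and 2 and 3 were higher with the covariate. Lef1, which is high in naive T cells, was at 6.02 ± 0.23 in anti-PD-1/L1 against 8.84 ± 0.06 in anti-CD27 and 8.21 ± 0.10 in the combination. Slfn2, which was set beside the quiescence list and is not part of it, was not called in either comparison.

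Among the combination arrays, 1 was low for several members. Replicate 3 was the lowest combination array in 6 of the 6 members with a mean above background, where it was lowest in 40.7% of the 11557 genes of such level. It was also the lowest of the 3 for the mean of the 34 interferon-stimulated genes, at 5.95 against 6.10 and 6.14, and the highest for the 12 proliferation genes, at 7.81 against 7.24 and 7.25. In anti-PD-1/L1, replicate 1 was the highest in 4 of the 6, where it was highest in 52.7% of those genes.

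Genes beside the Schlafen cluster were read as well. Of the nearest protein-coding genes on both sides of the cluster, 9 were measured, Unc45b and Ap2b1 among them, and 0 passed in the combination against anti-CD27 (median -0.005). Slfn14, the other long form of the cluster, lay below the background controls in all groups, and Slfnl1, a relative on another chromosome, was within 1 of them. Over the 9 arrays, the genes nearest to Slfn5 in centred log2 values, among 8898 named genes above background, were the interleukin-6 receptor gene Il6ra at a root mean square distance of 0.095, Pecam1, an adhesion molecule, at 0.244, and Zfp831, a zinc finger gene, at 0.253. Il6ra was at 7.47 ± 0.22 in anti-CD27, 6.16 ± 0.20 in the combination and 5.83 ± 0.08 in anti-PD-1/L1, in the order of the measured means of Slfn5, whose anti-PD-1/L1 values were at background. The genes nearest to Slfn2 were the pseudogene Rpl31-ps6 at 0.059, Tmem59, a membrane protein gene, at 0.066 and Sat1, a polyamine acetyltransferase, at 0.069. Tmem59 was at 7.43 ± 0.30 in anti-PD-1/L1, then 7.34 ± 0.08 (anti-CD27) and 7.24 ± 0.10 (combination), the same order as the means of Slfn2. Il6ra and Tmem59 were picked for closeness on these same 9 arrays, so a shared order of means follows from the choice.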

How the data were processed

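The authors deposited log2 levels of probe sets for each array. The submitters' processing notes name RMA and oligo 1.38.0, and the array's genome build is not given in the sources used here. Of 72688 rows, 6732 were controls, and 31258 of the others named 1 gene, 1492 several and 33206 none. Rows were named from the platform annotation, with symbols updated through RefSeq, and 441 genes with more than 1 row kept the row of highest mean. All 9 arrays entered a limma 3.58.1 model in R 4.3.3 with a mean for each group (6 residual degrees of freedom), with no filter on low values, and p-values were two-sided and adjusted by Benjamini-Hochberg over 30702 genes. The threshold for a call was 0.05 after adjustment, whatever the fold. The fit was tested on simulated data. The members and lists were chosen with earlier results of these data known. Up to 4 called members per list could be named, by size of change. Replicates are separate recipient mice, and their number limits the precision. Arrays of a group shared identical values in at most 14.6% of transcript rows. The alternatives were quantile normalization, a filter on the lowest 50% of genes, all rows, trend and robust variances, array weights, the 6 arrays compared, the positive controls as a covariate, a replicate block and leaving out each array. The sequences are RefSeq's, on GRCm38.p6.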

Additional observations from a re-analysis of the deposited data

How the results depend on the processing

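In the combination against anti-CD27, the difference of Slfn5, known when the family was picked, ran from -1.34 to -1.08 over the alternatives run. Many of these could not move it from -1.24 and changed only its SE or adjustment. They were the block, the 6 arrays alone, trend and robust variances, all rows, the 50% filter and each left-out anti-PD-1/L1 array. In that comparison the 1 member called was Slfn5, and nothing is read from its call here or in the other settings. With array weights, the 6 arrays alone or the positive control covariate 2 members were called. With 1 array left out, 1 to 2 were. Slfn5 is included in these counts. Against anti-PD-1/L1, 5 members were called in the combination and 6 in anti-CD27. With the positive control covariate these counts were 2 and 2, and with 1 array left out they were 5 to 6 and 6 to 6. That covariate is nearly shared with the anti-PD-1/L1 group. It reversed Slfn1 to -1.18 (anti-CD27) and -1.85 (combination) and Slfn3 to -1.01 and -0.81. Quantile normalization reversed Slfn1 in the combination to -0.24 and Slfn4 to 0.05 (anti-CD27) and 0.074 (combination), and leaving out replicate 1 of anti-PD-1/L1 reversed Slfn2 in anti-CD27, whose difference ran from -0.252 to 0.061 over the left-out arrays. The causes were not tested. The within-array value of Slfn5 minus Slfn2 was recomputed after quantile normalization, with the block and without each array. Its differences kept their sign, between -1.22 and -0.89, 0.59 and 1.34, and 1.67 and 2.24. Only quantile normalization could have turned the sign, since the groups did not overlap in this measured value and the block leaves its difference unchanged. Shared replicate numbers did not pair the arrays: correlations of same-numbered deviations ran from -0.20 to 0.16, and 2 of 9 arrays correlated best with their own number. The replicate block changed no member's call, with -1.24 for Slfn5, and it left 377 calls of all genes against 550, where array weights gave 2515 and the 6 arrays alone 1653. As a paired mean, the block gave -1.08, 0.79 and 1.88 for Slfn5 minus Slfn2, which equal the unpaired differences by arithmetic. In anti-PD-1/L1 this value is only a limit, and anti-CD27 was higher by at least 1.21. Members at background in anti-PD-1/L1 have only bounds there.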
